A study of Mus musculus with 6 samples.

Results

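The 10 genes described here encode receptors and adhesion molecules that mark the inner lining of blood vessels: Cdh5, Pecam1, Kdr, Tek, Tie1, Emcn, Stab2, Eng, Egfl7 and Flt1. They were chosen by symbol among the 31771 Ensembl identifiers of a count table from mouse spleen, and all 10 were found, each under 1 identifier. Pieces of spleen came from 6 mice of strain C57BL/6. The 3 mutant mice carried VEC-Cre (Cre recombinase driven by the VE-cadherin promoter), the SB Transposase of the Sleeping Beauty system and its transposon onc2, and the 3 control mice were labelled WT. The labels have no field for age, sex or litter. The titles of mutants 1 and 2 begin with F and that of mutant 3 with M, letters the labels do not explain. In the Sleeping Beauty system the transposase moves the transposon to other places in the genome, where it can activate or disrupt genes. The VE-cadherin promoter is active in endothelium, and Cre under it is also known to mark blood cells that descend from embryonic endothelium. The spleens were profiled to learn their cell make-up, and the question here is how transcripts known from the vessel wall differed between mutant and control. The 3 libraries of a group come from 3 animals. The p-values of the fits set the difference between groups against the spread between animals, pooled over both groups except where stated.

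Endothelial cells are held together by VE-cadherin, the product of Cdh5, and by PECAM-1 (CD31). They sense vascular endothelial growth factors through the tyrosine kinases FLT1 and KDR, and angiopoietins through TEK (also called TIE2), whose partner TIE1 has no well-established ligand of its own. Endoglin, from Eng, is a co-receptor for BMP9 and TGF-beta, EGFL7 is a secreted matrix protein, endomucin is a sialomucin of veins and capillaries, and stabilin-2 is the scavenger receptor of sinus-lining cells. In the spleen such cells line blood channels of the red pulp. Several of the genes are also known outside the vessel wall. PECAM-1 is carried by platelets and many leukocytes, endoglin by early red cell precursors, and TEK and TIE1 by blood stem cells and megakaryocytes.

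The libraries held 72902118 to 79258116 gene counts each. Levels are in CPM, the number of counts a gene would have if every library had the same fixed total. Log2 fold changes (mutant relative to control) and their standard errors (SE) come from edgeR's quasi-likelihood test over 19573 genes, with Benjamini-Hochberg adjusted p, and a gene is said to rise or fall where that p was under 0.05. All 10 genes were among those tested. The biological coefficient of variation was 72.8% among mutants and 17.1% among controls. Markers of B cells were much lower in mutants: the summed level of 5 B-cell genes (Ms4a1, Cd79a, Cd79b, Pax5 and Fcer2a) was 3449.5 to 3970.2 CPM in controls and 28.0 to 77.7 CPM in mutants. Xist, which is transcribed from an inactive X, was found at 1513 and 580 CPM in mutants 1 and 2 and at 0.423 to 0.663 CPM in mutant 3 and the controls. Ddx3y, a gene of the Y chromosome, was at 0.0412 and 0.0269 CPM in mutants 1 and 2 and at 55.0 to 62.7 CPM in mutant 3 and the controls. The 3 mutants were thus mixed in these sex markers, along the same division as the letters F and M of their titles, and the controls were alike. So mutants and controls were not balanced in sex, and the fit had no covariate for it.

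Because several of the genes were high in the same mutants, the 250 bases upstream of the annotated start are shown for 5 of them: Eng, which rose, Emcn and Kdr, which were highest in mutant 3, and Tek and Tie1, which were highest in mutants 1 and 3. The RefSeq table of GRCm38.p6 held 8 of the 10 genes, with 3 alternative starts for Egfl7, and those of Cdh5 and Pecam1 were not used here. The start is the one of that table, and it can differ from the end of the gene span given below. The Tie1 window lies mostly inside its gene span, and the Emcn and Kdr windows reach into theirs. Of the windows not shown, that of Stab2 reaches into its span and those of Egfl7 lie inside it. Capitals mark AGGAAG, a core of sites bound by ETS factors, the family with a central role in endothelial gene control, or its reverse complement CTTCCT. The windows are Eng (chr2:32646345-32646594, plus strand), Emcn (chr3:137340828-137341077, plus strand), Tie1 (chr4:118489850-118490099, minus strand), Tek (chr4:94739039-94739288, plus strand) and Kdr (chr5:75978456-75978705, minus strand), each written 5′ to 3′ along its gene.
Eng: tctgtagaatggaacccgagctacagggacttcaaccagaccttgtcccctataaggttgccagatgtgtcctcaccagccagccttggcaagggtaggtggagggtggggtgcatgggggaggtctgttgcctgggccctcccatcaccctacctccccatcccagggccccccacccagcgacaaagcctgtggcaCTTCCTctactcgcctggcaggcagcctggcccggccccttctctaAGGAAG
Emcn: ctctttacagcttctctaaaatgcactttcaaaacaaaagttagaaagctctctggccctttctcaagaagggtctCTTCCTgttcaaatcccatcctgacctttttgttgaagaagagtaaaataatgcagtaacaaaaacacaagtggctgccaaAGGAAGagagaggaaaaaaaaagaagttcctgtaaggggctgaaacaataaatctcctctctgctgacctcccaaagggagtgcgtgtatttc
Tie1: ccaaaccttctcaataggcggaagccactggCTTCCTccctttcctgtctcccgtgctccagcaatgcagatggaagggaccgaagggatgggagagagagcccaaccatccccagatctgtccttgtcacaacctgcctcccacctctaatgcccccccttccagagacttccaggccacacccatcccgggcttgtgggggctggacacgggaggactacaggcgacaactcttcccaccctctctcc
Tek: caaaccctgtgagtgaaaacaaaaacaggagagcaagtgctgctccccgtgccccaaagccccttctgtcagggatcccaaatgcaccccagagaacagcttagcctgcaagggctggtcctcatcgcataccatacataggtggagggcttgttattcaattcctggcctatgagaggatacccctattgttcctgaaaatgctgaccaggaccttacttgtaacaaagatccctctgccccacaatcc
Kdr: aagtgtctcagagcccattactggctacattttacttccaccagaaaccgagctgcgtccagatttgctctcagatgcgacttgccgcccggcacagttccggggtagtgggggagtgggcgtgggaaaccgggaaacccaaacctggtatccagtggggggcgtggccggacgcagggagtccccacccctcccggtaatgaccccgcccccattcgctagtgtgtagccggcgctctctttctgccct
The Eng window held 2 matches, 1 of which ended at the base before the start, the Emcn window held 2 and the Tie1 window 1, while these letters were not in the Tek and Kdr windows. Of the 10 windows of the 8 genes, 7 held at least 1 match on either strand, against 29.5% of 32851 windows of the same length over all genes in the table. The GATA core AGATAA (or TTATCT) was in 0 of the 10 windows, against 9.99% of all, and the TATA box TATAAA (or TTTATA) was in 1, that of Flt1, against 12.4%. The matches found in these windows did not overlap one another, and a match is a description of the sequence only.

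Across the mutant spleens 2 of the 10 genes rose, Eng and Egfl7, and 1 fell, Pecam1. Over all 19573 genes tested, 5.08% rose and 6.9% fell by the same rule. The median log2 fold change of the 10 was 0.86, beside 0.10 for all genes tested, and the other 7 ranged from 0.14 to 1.93 without passing. In 3 genes (Eng, Egfl7 and Stab2) every mutant lay above every control, an arrangement found in 18% of all genes tested, and in Pecam1 every mutant lay below, found in 22.6%. In either direction 4 of the 10 did not overlap between groups, beside 40.5% of all genes. Animals differed in how many of the 10 left the control range. Mutant 3 was above all controls in 9 genes, as were 43.5% of all genes in that library. Mutant 1 was above in 5 and below in 2, and mutant 2 was above in 3 and below in 3, while 42.7% and 36.5% of all genes were above in those libraries and 45.2% and 47.3% below.

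**Figure D1:**
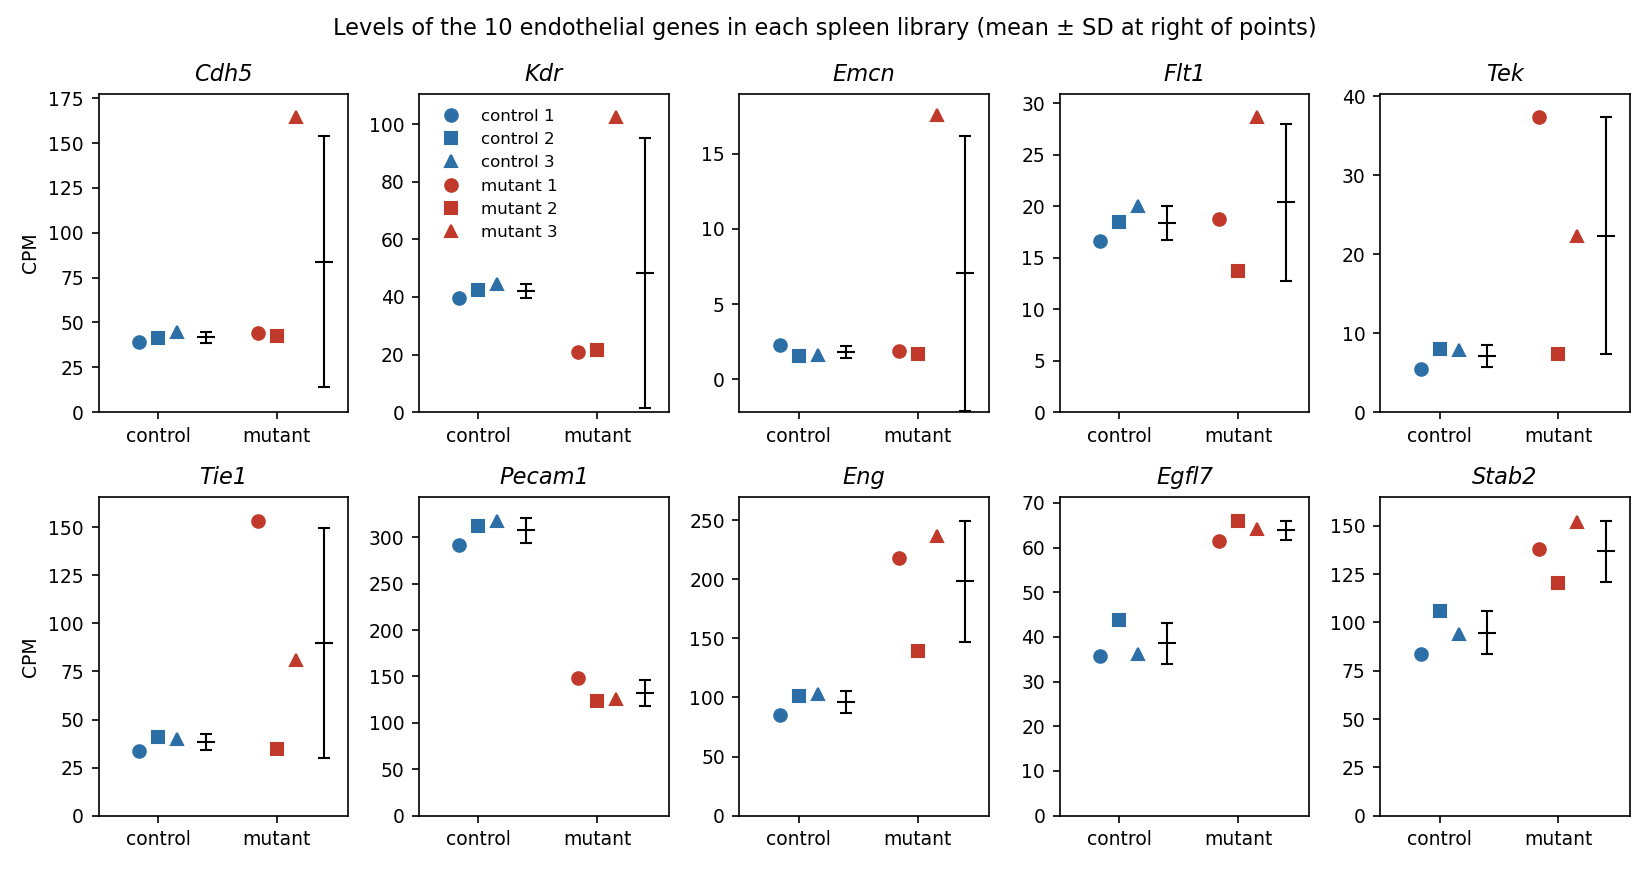
Level of each gene in CPM (y axis, a separate linear scale per panel that includes 0) in the 3 control (blue) and 3 mutant (red) libraries, with the marker shape giving the animal number and black bars the mean ± SD. Pecam1 sits lower and Eng, Egfl7 and Stab2 sit higher in all 3 mutants, whereas Cdh5, Kdr and Emcn are high in mutant 3 and Tek and Tie1 in mutants 1 and 3.

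Eng, the BMP9 and TGF-beta co-receptor (ENSMUSG00000026814, chr2:32646595-32682669 on GRCm38), was at 85.5, 101 and 103 CPM in controls 1, 2 and 3 and at 218, 139.6 and 237 CPM in mutants 1, 2 and 3. All 3 mutants were above all controls, mutant 2 by the smallest margin. The mean rose from 96.4 ± 9.43 to 198 ± 51.5 CPM (SD, n = 3 each), a log2 fold change of 1.04 ± 0.21 (adjusted p = 0.0322). Egfl7, the secreted matrix factor (ENSMUSG00000026921, chr2:26580014-26593120), was at 35.6, 43.9 and 36.3 CPM in controls against 61.5, 65.9 and 64.1 CPM in mutants. The groups did not overlap, and the 3 mutants were close to one another. The mean rose from 38.6 ± 4.60 to 63.8 ± 2.19 CPM, a log2 fold change of 0.74 ± 0.17 (adjusted p = 0.0454). The call for Egfl7 was close to the threshold: it was lost in 8 other settings, with adjusted p up to 0.224. That for Eng was lost in 5, namely without any single control (adjusted p of 0.138 to 0.160), without mutant 3 (0.0592) and by limma-voom given separate group variances (0.0504). Without control 1, 2 or 3, few calls were left over all genes: 6, 4 and 8 higher and 130, 119 and 128 lower. With all libraries 995 were higher and 1351 lower. The fit with separate group variances called 0 of the 10 genes higher and 1 lower, beside 3.71% and 4.02% of all genes. At an unadjusted p under 0.05, 4 of the 10 were higher in that fit, beside 2557 of all 19573 genes. Early red cell precursors also carry endoglin, and the summed level of 8 erythroid genes, 2 of which rose, was 639 to 1365 CPM in controls against 957, 6249 and 3020 CPM in mutants 1, 2 and 3. All 8 were detected in every library. Slc4a1 alone made up 3255 CPM of the sum in mutant 2, and without it the sums were 324 to 669.6 CPM in controls against 670.2, 2995 and 2984 CPM in mutants. Of the 8 genes 5 were highest in mutant 3, where Eng was highest among mutants, and 3 in mutant 2, where Eng was lowest among mutants. In mutant 1, where Eng was at 218 CPM, 0 of the 8 were highest. The part of these cells in the result was not tested.

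Stab2, the scavenger receptor of sinus-lining cells (ENSMUSG00000035459, chr10:86841198-87008025), was at 83.8, 106 and 94.1 CPM in controls against 138, 120.4 and 152 CPM in mutants. The groups did not overlap, though the gap between control 2 and mutant 2 was small. The log2 fold change was 0.54 ± 0.16 and did not pass (adjusted p = 0.0838). It passed without mutant 2 (adjusted p = 0.0396), and without control 3 the adjusted p was 0.308.

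Pecam1, an adhesion molecule of endothelial junctions, platelets and leukocytes (ENSMUSG00000020717, chr11:106654217-106750628), was the only gene of the 10 whose mean was lower in mutants. It was at 292, 312 and 318 CPM in controls against 148, 123 and 126 CPM in mutants. Every mutant held less than every control, and the 3 mutants were close together at 0.400 to 0.481 of the control mean. The mean fell from 307 ± 13.6 to 132 ± 13.7 CPM, a log2 fold change of -1.21 ± 0.16 (adjusted p = 0.0122). With each mutant left out in turn the gene still passed, and without control 1, 2 or 3 it did not (adjusted p = 0.0815, 0.0903 and 0.0869). Marker genes of blood cells known to carry PECAM-1 were measured beside it. All 5 B-cell genes fell, from a sum of 3449.5 to 3970.2 CPM to 28.0 to 77.7 CPM. Of 9 megakaryocyte and platelet genes 3 rose (Itga2b, Pf4 and Vwf) and the other 6 did not pass. Vwf was at 43.0 to 70.4 CPM in controls against 130, 108 and 190 CPM in mutants. With a control left out, the adjusted p by edgeR was 0.174 to 0.204 for Itga2b and 0.102 to 0.152 for Vwf. The sum of the 9 genes was 448 to 804 CPM in controls against 3318, 1356 and 5707 CPM in mutants 1, 2 and 3. None of 6 T-cell genes passed by edgeR (4 at an unadjusted p under 0.05). DESeq2 gave 4 of them a p and called all 4 lower. Of the 6, limma-voom called 4 lower, 5 with sample weights and 4 with separate group variances. The sums were 471 to 604 CPM in controls against 29.4, 287 and 570 CPM in mutants, of which Lat made up 559 CPM in mutant 3. Without Lat the sums were 359.7 to 455 CPM in controls against 9.75, 252 and 11.2 CPM in mutants, and Cd4 was at 197 CPM in mutant 2. None of 8 monocyte and macrophage genes passed by edgeR (1 at an unadjusted p under 0.05) and none of the 4 to which DESeq2 gave a p. With sample weights limma-voom called 1 of the 8 lower. The sums were 520 to 694 CPM in controls against 237, 2980 and 337 CPM in mutants. Of 8 granulocyte genes 3 rose, with sums of 175 to 263 CPM in controls against 1350 (mutant 1), 1723 (mutant 2) and 1109 CPM (mutant 3). The genes did not move together in mutant 1. There Csf3r (808 CPM) and Prtn3 (416 CPM) made up most of the sum, and Mpo and Ctsg were also above all controls. In the same library S100a8 (14.8 CPM), S100a9 (23.4 CPM) and Camp (2.39 CPM) were below all controls, and Elane lay among them. Over all 19573 genes tested by edgeR, 3169 were higher and 2945 lower at an unadjusted p under 0.05. DESeq2 called 2444 higher and 2640 lower among 31079 genes. Every gene of these lists had counts in every library. The part of these cells in the fall of Pecam1 was not tested. In bulk tissue, fewer cells of a type and less RNA per cell cannot be told apart.

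Cdh5, whose promoter drives the Cre of these animals (ENSMUSG00000031871, chr8:104101625-104144511), was at 38.9, 41.4 and 44.6 CPM in controls against 44.1, 42.6 and 164 CPM in mutants. Mutants 1 and 2 lay inside the control range, and mutant 3 stood at 3.95 times the control mean. The log2 fold change of 0.99 ± 0.54 did not pass (adjusted p = 0.260), and without mutant 3 it was 0.10 (adjusted p = 0.660). Emcn, the endomucin gene (ENSMUSG00000054690, chr3:137341067-137432185), was in controls the least abundant of the 10 per exon length. It was at 2.27, 1.55 and 1.59 CPM in controls against 1.88, 1.68 and 17.6 CPM in mutants, which corresponds to 121 to 168 counts in each control and 137, 125 and 1351 counts in the mutants. As for Cdh5, mutants 1 and 2 lay among the controls and mutant 3 alone was high, at 9.75 times the control mean (log2 1.93 ± 0.98, adjusted p = 0.235). Without mutant 3 the log2 fold change was 0.02 (adjusted p = 0.982).

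Kdr, the main signalling receptor for VEGF-A (ENSMUSG00000062960, chr5:75932827-75978458), was at 39.6, 42.3 and 44.6 CPM in controls against 20.8, 21.4 and 102 CPM in mutants. Mutants 1 and 2 were below all controls, at 0.494 and 0.509 of their mean, and mutant 3 was above all of them at 2.43 times. The log2 fold change of 0.17 ± 0.63 did not pass (adjusted p = 0.875). Its direction rested on mutant 3. Without that animal it was -0.95 and passed as lower (adjusted p = 0.0317). Then 0 of the 10 genes rose and 2 fell, Pecam1 and Kdr, beside 4.28% and 6.17% of all genes. For Kdr, limma-voom with all animals gave -0.20 (adjusted p = 0.840). Flt1, the VEGF receptor that also acts as a decoy (ENSMUSG00000029648, chr5:147561604-147726011), moved less. It was at 16.6, 18.4 and 20.0 CPM in controls against 18.8, 13.7 and 28.6 CPM in mutants (log2 0.14 ± 0.28, adjusted p = 0.760). Mutant 1 lay inside the control range, mutant 2 below it and mutant 3 above it, and without mutant 3 the log2 fold change was -0.15.

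Tek, the angiopoietin receptor (ENSMUSG00000006386, chr4:94739289-94874976), was at 5.48, 8.01 and 7.90 CPM in controls against 37.4, 7.37 and 22.4 CPM in mutants. Mutants 1 and 3 were above all controls, at 5.24 and 3.14 times their mean, and mutant 2 lay among them. Tie1 (ENSMUSG00000033191, chr4:118471191-118490061) had the same order of mutants, at 33.7, 41.0 and 40.1 CPM in controls against 153, 34.9 and 81.0 CPM in mutants. Neither passed, with log2 fold changes of 1.64 ± 0.56 for Tek (adjusted p = 0.111) and 1.22 ± 0.49 for Tie1 (adjusted p = 0.153). Both passed once mutant 2 was left out (adjusted p = 0.0125 and 0.0197), when 5 of the 10 genes rose, beside 13.6% of all genes. Tek also passed as higher by DESeq2 (adjusted p = 0.0349) and by limma-voom with sample weights (0.0455). Over the 6 libraries the log2 levels of the 2 genes had a Pearson correlation of 0.99, given as a description. The summed level of 9 stem and progenitor genes, which include Kit, Cd34 and Meis1, was 364 to 468 CPM in controls against 879, 190 and 325 CPM in mutants 1, 2 and 3. Ly6a was the most abundant of the 9 and the main part of the control sums. Without it the sums were 149 to 168 CPM in controls against 859.8 (mutant 1), 98.4 (mutant 2) and 297 CPM (mutant 3). Mutants 1 and 3 then lay above the controls and mutant 2 below. The genes did not move together: Flt3, Hlf, Mecom and Ly6a were below every control in every mutant. Those 4 of the 9 stand beside 22.6% of all genes tested, and 0 were above every control in every mutant, beside 18%. In mutant 3, Kit (108 CPM) and Cd34 (20.5 CPM) were above all controls and Meis1 (2.20 CPM) was below them. None of the 9 was at 0 in a library, 1 of them fell (Mecom, adjusted p = 0.0378, and 0.153 to 0.182 with a control left out) and the rest did not pass. The megakaryocyte and platelet sum of 3318, 1356 and 5707 CPM was likewise lowest of the mutants in mutant 2, and the part of either cell type in the Tek and Tie1 levels was not tested.

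Mutant 3 is the library with low Xist among the mutants, and set alone against the 3 controls, all of which also had low Xist, it had 9 of the 10 genes higher and Pecam1 lower. The fit assumes that the lone mutant varies like the controls, and mutants varied more than controls (72.8% against 17.1%), so its p-values are not used. It called 25.7% of all genes higher and 26.9% lower under that assumption. Sex and animal cannot be told apart among the mutants, and with all libraries the 2 groups were not balanced in sex. The genes that passed with all libraries, Eng, Egfl7 and Pecam1, had log2 fold changes of 1.25, 0.69 and -1.33 there. Cdh5 was at 1.94, Emcn at 3.24 and Kdr at 1.24.

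**Figure D2:**
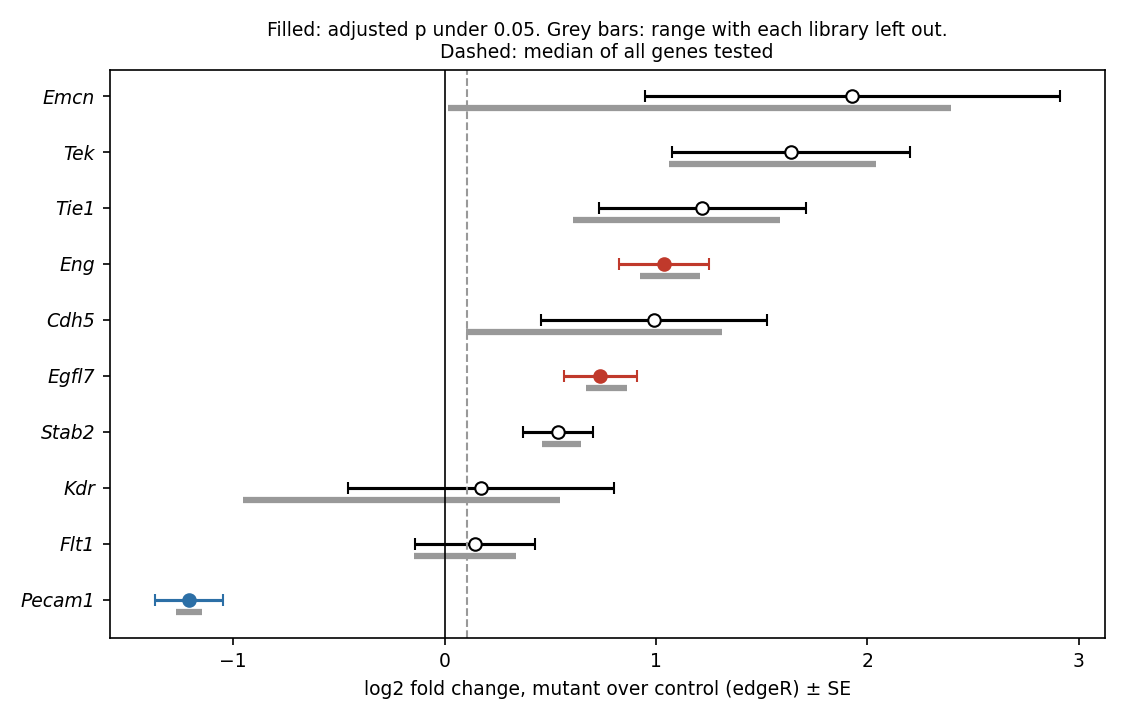
Log2 fold change of mutant over control (x axis) for each gene (y axis) with its SE, filled where the adjusted p was under 0.05, over grey bars that span the values with each library left out in turn. Kdr and Flt1 are the genes whose grey bar crosses 0, and the bars of Emcn and Cdh5 reach down to 0.02 and 0.10.

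To compare one gene with another, counts were divided by exon length and scaled to the same total in every library (TPM). Among controls the order was Pecam1 (110 ± 10.2 TPM), Eng (53.0 ± 7.42), Stab2 (24.0 ± 3.16), Egfl7 (23.9 ± 2.73), Cdh5 (22.1 ± 2.69), Tie1 (17.3 ± 2.39), Kdr (10.4 ± 1.15), Tek (3.37 ± 0.785), Flt1 (3.03 ± 0.434) and Emcn (0.737 ± 0.141). Stab2 and Egfl7, Egfl7 and Cdh5, and Tek and Flt1 overlapped in their control ranges, while the other neighbours in this order did not. Eng took the place of Pecam1 as the most abundant of the 10 in all 3 mutants, at 148, 88.2 and 170.2 TPM against 65.2, 50.5 and 58.8 TPM for Pecam1. The second place went to a different gene in each mutant: Tie1 in mutant 1 (85.7 TPM), Pecam1 in mutant 2 and Cdh5 in mutant 3 (114 TPM). TPM depends on the lengths of all transcripts in a library and was used here only to order genes within libraries.

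**Figure D3:**
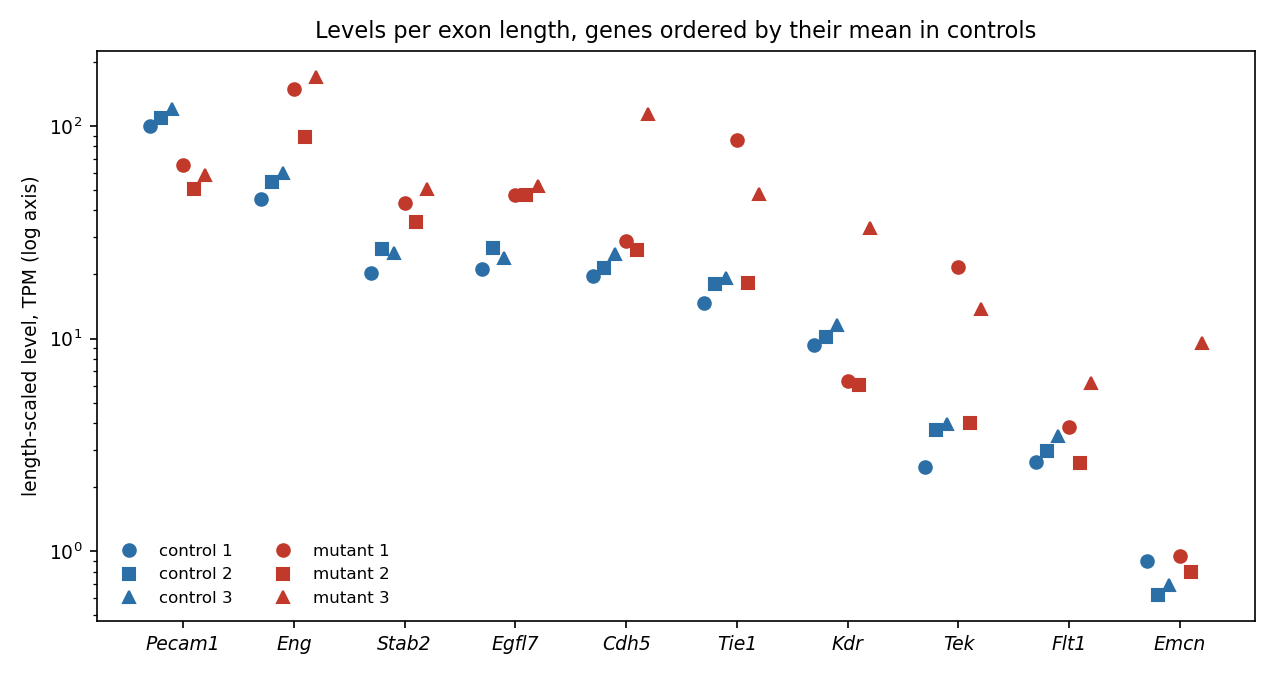
Level per exon length in TPM (y axis, log scale) for the 10 genes, ordered by their mean in controls, in each control (blue) and mutant (red) library. Pecam1 leads in the 3 controls and Eng in the 3 mutants.

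Ratios of counts within a library do not depend on the scaling between libraries, and were taken against Cdh5 for the other 9 genes. Kdr and Cdh5 had nearly equal counts in controls, with ratios of 1.02, 1.02 and 0.999, and Kdr was lower than Cdh5 in all mutants, with ratios of 0.472, 0.503 and 0.623. So Kdr was lower relative to Cdh5 also in mutant 3, where both genes were high. Pecam1 to Cdh5 was 7.12 to 7.54 in controls and 3.35, 2.89 and 0.764 in mutants. Flt1 to Cdh5 was 0.428 to 0.448 in controls and 0.425, 0.321 and 0.174 in mutants, a gap that in mutant 1 was small. In these 3 ratios the groups did not overlap, each with p = 0.1 in an exact permutation test (2-sided), which is the minimum for groups of 3, and 0.3 after adjustment over the 9 ratios. The other 6 ratios overlapped between groups, with exact permutation p from 0.5 to 1.0. Stab2, Eng and Egfl7 were higher relative to Cdh5 in mutants 1 and 2 than in any control and lower in mutant 3. Eng to Cdh5, for example, was 2.20 to 2.44 in controls and 4.95, 3.28 and 1.44 in mutants.

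Within the receptor pairs, Tek to Tie1 was 0.162 to 0.197 in controls and 0.244, 0.211 and 0.276 in mutants, higher in every mutant (exact 2-sided permutation p = 0.1, adjusted over 2 ratios 0.2). Flt1 to Kdr was 0.420 to 0.449 in controls and 0.901, 0.637 and 0.280 in mutants, above the controls in mutants 1 and 2 and below them in mutant 3 (exact permutation p = 0.7).

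**Figure D4:**
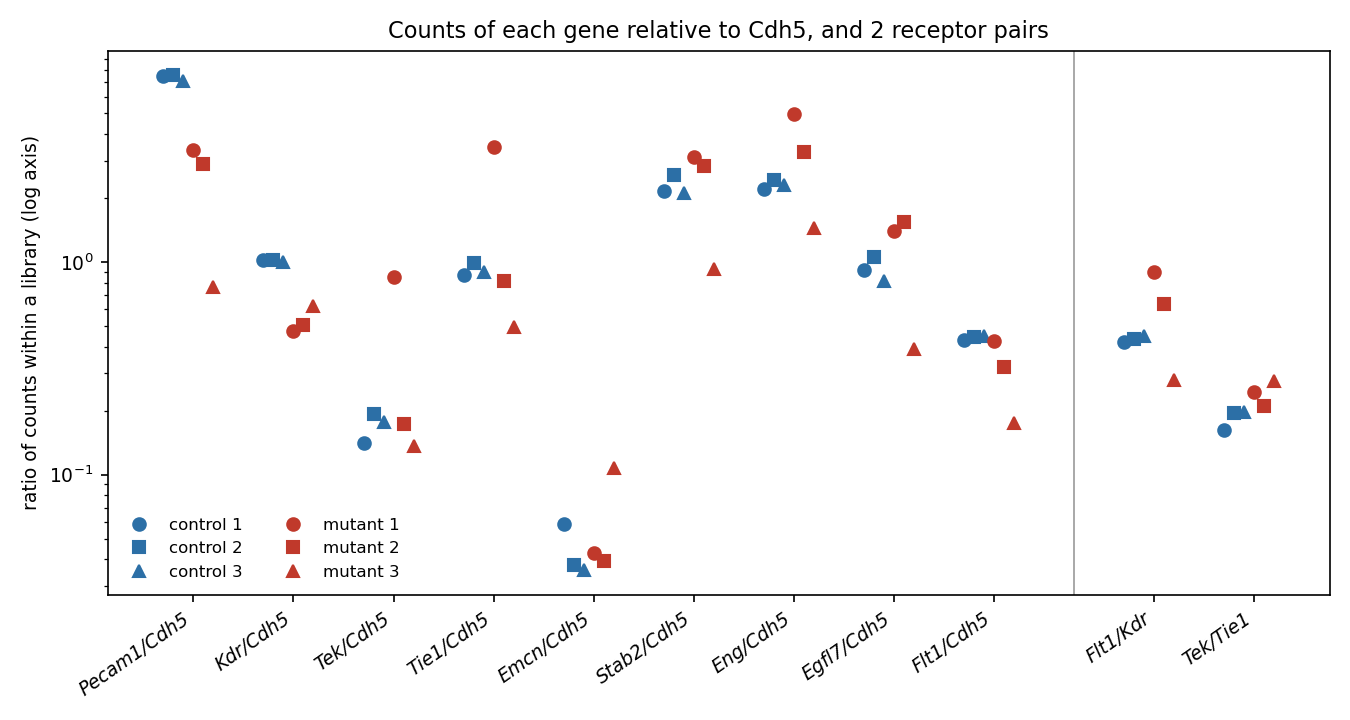
Counts of each gene divided by those of Cdh5 in the same library, and 2 receptor pairs at right (y axis, log scale), for control (blue) and mutant (red) libraries. Kdr to Cdh5 lies near 1 in controls and between 0.472 and 0.623 in mutants, and Pecam1 to Cdh5 falls furthest in mutant 3.

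The partners of these receptors were taken from 8 lists of other endothelial genes, with 71 genes of which 68 were tested. Of these 3 rose and 4 fell, beside 5.08% and 6.9% of all genes, with a median log2 fold change of 0.24. Among 9 receptor partners and targets of the BMP9 and ALK1 pathway, in which endoglin acts, 7 were tested, 1 rose and 1 fell. Bmpr2, the type II receptor, rose from 18.8, 19.3 and 22.1 CPM in controls to 47.9, 48.9 and 57.7 CPM in mutants (log2 1.37 ± 0.17, adjusted p = 0.00944). Id3, a target of BMP signalling that B cells also express, fell from 133, 122 and 134 to 15.4, 9.57 and 18.4 CPM (log2 -3.17 ± 0.25, adjusted p = 0.00305). Tgfbr2, the most abundant gene of that list, was at 180.5 to 218 CPM in controls against 43.4, 286 and 54.5 CPM in mutants (adjusted p = 0.654). Id3 also passed with each control left out, and Bmpr2 did not (adjusted p of 0.0736 to 0.0840).

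Of 10 junction partners of VE-cadherin and PECAM-1, 2 rose and 1 fell. Among the catenins, which link cadherins to the cytoskeleton, Ctnnd1 (p120) rose from 15.3 ± 0.910 to 43.8 ± 14.1 CPM (log2 1.54 ± 0.31, adjusted p = 0.0308), Ctnna1 (alpha-catenin), named after its values were seen, rose from 91.7 ± 7.55 to 156 ± 20.7 CPM (log2 0.78 ± 0.17, adjusted p = 0.0363), and Ctnnb1 (beta-catenin) was at 137 ± 11.8 and 162 ± 37.5 CPM (adjusted p = 0.422). Jup (plakoglobin), also named after its values were seen, was at 60.5 to 72.9 CPM in controls against 41.1, 99.6 and 39.5 CPM in mutants (log2 -0.15, adjusted p = 0.834). Catenins are made by many cell types. Jam3, a junctional adhesion molecule, was the gene that fell, with 7.12 ± 0.544 CPM in controls against 2.13 ± 0.584 CPM in mutants (log2 -1.73 ± 0.36, adjusted p = 0.0339). With each control left out in turn, Ctnnd1, Ctnna1 and Jam3 did not pass (adjusted p of 0.137 to 0.186). The tight junction gene Cldn5, also named after its values were seen, had the animal pattern of Kdr, at 29.2, 40.2 and 37.3 CPM in controls against 27.3, 25.0 and 74.1 CPM in mutants (adjusted p = 0.747). Robo4, an endothelial guidance receptor named for the same reason, was at 14.9 to 16.3 CPM in controls against 20.7, 10.7 and 48.8 CPM in mutants (adjusted p = 0.366).

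Of 11 other vascular genes 1 fell, S1pr1, and of 12 endothelial transcription factors, 11 of them tested, 1 fell, Klf2. Both are also known in naive lymphocytes, where KLF2 drives S1pr1. S1pr1 fell from 240 ± 13.6 to 30.1 ± 16.7 CPM (log2 -3.00 ± 0.39, adjusted p = 0.0116) and Klf2 from 462 ± 41.8 to 54.7 ± 27.6 CPM (log2 -3.04 ± 0.44, adjusted p = 0.0143), alongside the B-cell sum given above, and the part of lymphocytes in these falls was not tested. Neither passed with a control left out (adjusted p of 0.0654 to 0.0696 for S1pr1 and 0.0773 to 0.0817 for Klf2). Hhex, a factor of early endothelium and blood, was at 114 ± 11.9 and 52.4 ± 21.4 CPM (adjusted p = 0.0590). Ets1, an ETS factor shared with lymphocytes, was at 587 to 660 CPM in controls against 45.5, 52.8 and 1648 CPM in mutants (adjusted p = 0.951). Aqp1, a water channel of vessels and red cells, was at 94.2 to 185 CPM in controls against 134, 914 and 1193 CPM in mutants (adjusted p = 0.114).

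In the remaining lists no gene passed by edgeR: 8 VEGF ligands and other VEGF receptors, 4 genes of the angiopoietins and the TEK phosphatase VE-PTP, 9 genes of leukocyte adhesion and 8 of sinusoidal and lymphatic-type endothelium. At an unadjusted p under 0.05 by edgeR, 11 of these 29 genes passed, beside 3169 higher and 2945 lower of all 19573. After adjustment, 9 of the 26 to which DESeq2 gave a p passed, beside 2444 higher and 2640 lower of 31079. By limma-voom 1 of the 29 passed, 6 with its sample weights and 3 with separate group variances. Over all 19573 genes, 1842 were higher with sample weights, 50.0% of the calls. With separate group variances 3.71% were higher and 4.02% lower. Whether these lists differed from all genes was not tested. Flt4, the lymphatic VEGF receptor, was at 12.5, 15.6 and 15.4 CPM in controls against 31.3, 18.3 and 56.5 CPM in mutants, above the controls in every mutant (adjusted p = 0.0871). Vegfa was at 47.3 to 54.7 CPM in controls against 33.2, 31.1 and 83.6 CPM in mutants (adjusted p = 0.915), with the same animals low and high as for its receptor Kdr. Vegfc, a ligand of FLT4, was at 4.12 ± 0.302 and 2.47 ± 0.443 CPM (adjusted p = 0.213). Angpt1, the activating ligand of TEK, was at 5.19 to 8.25 CPM in controls against 263, 16.9 and 6.31 CPM in mutants (adjusted p = 0.133), so it was high in mutant 1 alone of the 2 animals with high Tek. Angpt4 was at most 0.858 CPM in any library.

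Podxl, a sialomucin of vessels, blood progenitors and platelets, was at 16.2 to 18.5 CPM in controls against 97.0, 55.6 and 690 CPM in mutants (adjusted p = 0.0525). Madcam1, the addressin that in spleen lines the marginal sinus, was at 25.8 to 33.3 CPM in controls against 2.61, 0.215 and 4.83 CPM in mutants (adjusted p = 0.0659). Its groups did not overlap, and it was below the controls while Stab2, the sinusoidal gene, was above them. Vcam1 was at 254 to 339 CPM in controls against 84.3, 1317 and 293 CPM in mutants (adjusted p = 0.525). Stab1, a paralog of Stab2 that macrophages also express, was at 19.4, 21.9 and 22.9 CPM in controls against 72.8, 1747 and 116 CPM in mutants (adjusted p = 0.0701), and Lyve1 was at most 0.580 CPM in controls against 0.631, 131 and 15.0 CPM in mutants (adjusted p = 0.0666). Mrc1, the mannose receptor of macrophages and some sinusoids, was at 60.1 to 85.5 CPM in controls against 513, 1279 and 75.0 CPM in mutants (adjusted p = 0.0858). Stab1, Lyve1, Mrc1 and Vcam1 were each highest in mutant 2, the library with the highest monocyte and macrophage sum (2980 CPM), and the part of those cells was not tested.

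**Figure D5:**
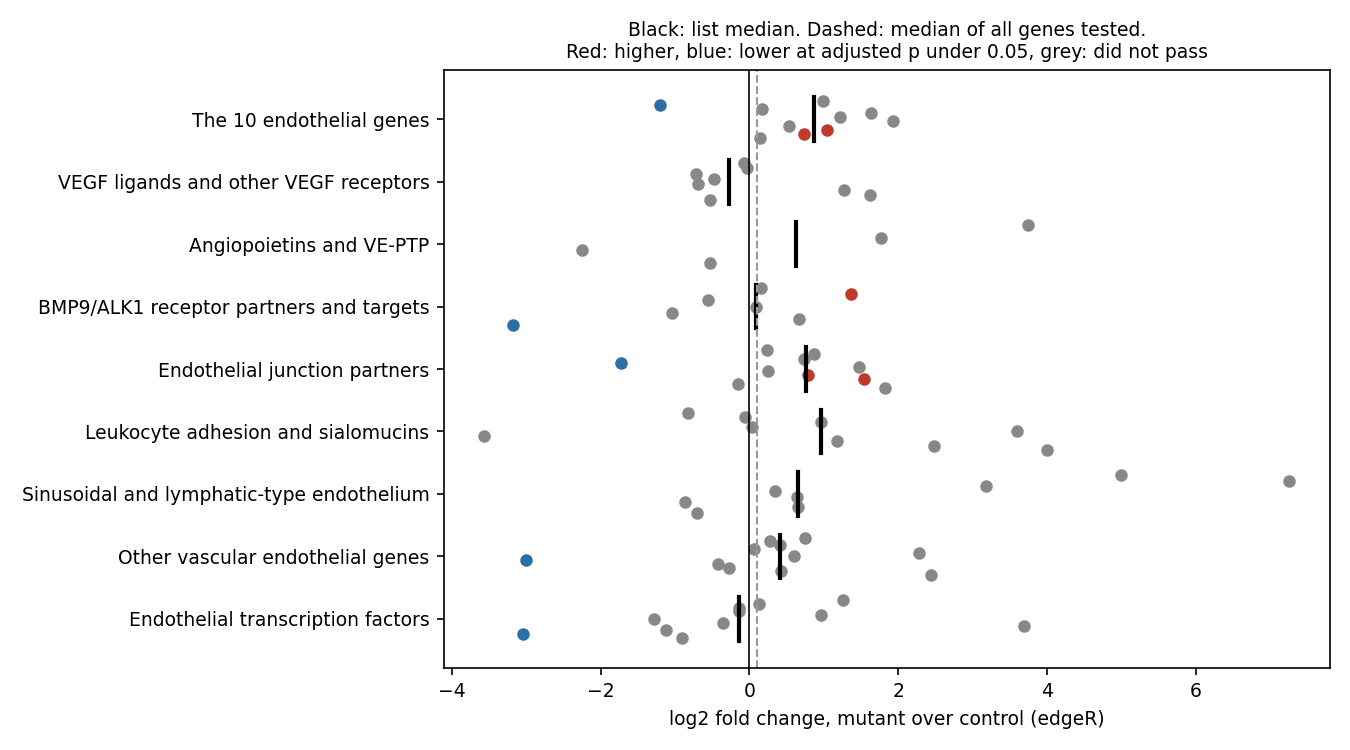
Log2 fold change of mutant over control (x axis) for the 10 endothelial genes and for the 8 lists of partner genes (y axis), 1 point per gene, red where higher and blue where lower at an adjusted p under 0.05, with list medians as black bars and the median of all genes dashed. Most partner genes are grey, and 3 are red and 4 blue.

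In mural and fibroblastic stroma, the cells next to the vessel wall, 3 of 9 genes fell, and the sum of the 9 was 556 to 742 CPM in controls against 77.4, 340.1 and 204 CPM in mutants. Ccl21a, a chemokine of the T-cell zone, was among them, with 312 ± 38.6 CPM in controls against 7.26 ± 1.28 CPM in mutants (log2 -5.41 ± 0.26, adjusted p = 0.000704). Without it the sums were 287 to 399 CPM in controls against 71.3, 331 and 197 CPM in mutants, with mutant 2 inside the control range. Des and Myh11 were the other two that fell, while Col1a1 and Col3a1, fibrillar collagens, had log2 fold changes of 0.31 and 0.20 (adjusted p = 0.748 and 0.872) and were above all controls in mutant 2, at 152 and 72.0 CPM. The sum of the 10 endothelial genes was 634 to 716 CPM in controls against 842, 571 and 995 CPM in mutants.

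The genes whose log2 levels were most like those of Cdh5 over the 6 libraries, among 10236 considered, were Prps1l3, Ets2, Car6, Svbp and Lrpprc, with Pearson correlations of 0.994 to 0.996. All 5 were highest in mutant 3. Car6 was at 1720 CPM there against at most 0.508 CPM in the others, and Ets2, an ETS factor, was at 103 CPM against 38.5 to 45.2 CPM. Without mutant 3 the correlation was 0.994 for Prps1l3, 0.757 for Ets2, 0.556 for Car6, 0.489 for Svbp and 0.155 for Lrpprc. Among the 10 genes themselves Emcn was the most like Cdh5 (0.98). These are descriptions over libraries that share their groups.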

How the data were processed

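Per the labels' protocols, 50 ng of spleen RNA per animal went into poly-A selected libraries of a stranded kit. The authors deposited whole-number counts per Ensembl gene without normalization. Per the submitters' processing notes, STAR 2.5.3a, limma and the builds mm10 and GRCm38 were used, with no role stated. The sources used here give neither the annotation nor the strand setting of the counting. Exons of Stab2, Eng and Egfl7 overlap other genes on the opposite strand by 1.61%, 1.51% and at most 1.79% of their length in GENCODE M21, and 7.37% of the Egfl7 exons lie in Gm20532 on the same strand, so a few of their reads could belong to those genes.

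CPM were computed from the deposited counts and library totals. Tests used edgeR 4.0.16 (R 4.3.3): TMM scaling, its expression filter and a robust quasi-likelihood fit without covariates, with p adjusted by Benjamini-Hochberg over 19573 genes and called under 0.05. The SE is the log2 fold change over the square root of F. Ratios used a pseudocount of 0.5 counts and exact permutation tests over libraries. TPM used the union of GENCODE M21 exons. Replicate numbers follow accession order. Alternatives were other scalings, DESeq2 1.42.0, limma-voom (limma 3.58.1) in 3 forms, no filter, haemoglobin and immunoglobulin genes left out and each library left out. The low-Xist comparison and the marker sums without the most abundant gene were added after the data were seen. The procedure was tested on simulated counts, where edgeR found 0% of 2-fold, 5.97% of 4-fold and 72.7% of 16-fold changes. The simulation gave both groups the same spread, unlike these libraries. The 10 genes and the lists were chosen with earlier results of these data known. Named partner genes are, per list, the 2 with the smallest p (1 for other cell types) and the most abundant. Not all of the genes so chosen are described. A marker gene of the lists is not reported here, and its list was summed without it.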

Additional observations from a re-analysis of the deposited data

How the results depend on the processing

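The number of the 10 genes that rose was 2 with all libraries, 1 with upper-quartile scaling, 1 with no filter, 0 by limma-voom with separate group variances and 0 to 5 with each library left out in turn, while the number that fell was 1 in each other setting with all libraries and 0 to 2 with each library left out. Over all genes, 995 rose and 1351 fell. The calls were 2444 higher and 2640 lower by DESeq2, 1842 higher by limma-voom with sample weights and 786 lower by limma-voom with separate group variances. With each library left out, 4 to 2794 genes were higher and 119 to 3137 lower, the lowest numbers arising without control 2 and the highest without mutant 2. The cause was not tested. The low-Xist libraries alone set 1 mutant against 3 controls and take the spread from the controls, which varied less than mutants (17.1% against 72.8%), so the 9 of the 10 genes and the 5602 higher and 5864 lower genes called there are no calls on a par with the others. The median log2 fold change of all genes was 0.10, and -0.08 to 0.20 in the other settings. Eng, Egfl7, Pecam1, Stab2, Tek, Tie1, Cdh5 and Emcn kept their direction in every setting that gave a value, and DESeq2 gave Emcn no p.

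With each library left out, log2 fold changes that changed sign ranged from -0.95 to 0.55 for Kdr, -0.15 to 0.34 for Flt1, -0.40 to 0.48 for Cldn5, -2.25 to 1.69 for Csf1r, -3.62 to 0.42 for Ets1, -2.22 to 1.15 for Lat, -1.76 to 1.81 for Slc4a1, -0.73 to 1.48 for Vcam1 and -0.64 to 0.16 for Vegfa. By limma-voom the sign turned for Kdr (-0.20), Csf1r (-0.67), Lat (-0.82) and Slc4a1 (-0.64). With separate group variances it turned for Kdr (-0.20), Csf1r (-0.68), Lat (-0.81) and Slc4a1 (-0.65). With sample weights it turned for Csf1r (-1.32), Slc4a1 (-2.24), Vcam1 (-0.11) and Vegfa (0.15). In the low-Xist libraries it turned for Angpt1 (-0.20), Csf1r (-1.85), Ets1 (1.36), Slc4a1 (-3.96), Vcam1 (-0.10) and Vegfa (0.66). Differences in log2 ratio to Cdh5 that changed sign with a library left out ranged from -0.14 to 1.18 for Tek, -0.53 to 0.88 for Tie1, -0.061 to 0.66 for Emcn, -0.49 to 0.39 for Stab2, -0.090 to 0.80 for Eng and -0.33 to 0.67 for Egfl7, and that of Flt1 to Kdr from -0.043 to 0.80. The cause was not tested.

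No paired analysis was possible because the labels give the animals no shared replicate numbers. With 3 animals a group and this spread among mutants, a p that missed the threshold does not show that a level was unchanged.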
